A study of Mus musculus with 6 samples.

Results

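AP-1 is a family of transcription factors that bind DNA as pairs of basic leucine zipper proteins, mostly 1 FOS protein with 1 JUN protein. In T cells the receptor switches AP-1 on through MAP kinases, and JUN proteins also pair with BATF and BATF3, small leucine zipper proteins without an activation domain of their own. BATF-JUN pairs bind next to the interferon regulatory factors IRF4 and IRF8 on composite sites, and in CD8 T cells this assembly is known for driving clonal expansion and effector differentiation, with IRF4 made in proportion to the strength of the receptor signal.

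The 10 genes described here were fixed by name, with earlier results of these data known. They are the FOS genes Fos, Fosb and Fosl2, the JUN genes Jun, Junb and Jund, and the BATF genes Batf and Batf3. The interferon regulatory factor genes Irf4 and Irf8 complete the set. All 10 were found among the 22095 gene rows of the expression table. RNA had been sequenced from wild-type CD8 T cells of C57BL/6 mice, an inbred laboratory strain. Naive cells isolated from spleen had been activated for 48 h through CD3 and CD28 with antibodies, in medium that held serum and recombinant mouse IL-2. The DMSO group, 3 libraries, received the solvent DMSO, and the ponatinib group, 3 libraries, received ponatinib at 10 nM, a tyrosine kinase inhibitor whose targets include BCR-ABL. Ages were not given, and nothing in the labels ties the replicates to separate animals or cultures. The p-values therefore cover the variation among these libraries alone, which may be technical.

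Levels are in TPM, the share of all transcripts in a library on a common scale, a unit that corrects for transcript length and so lets genes be set side by side. The deposited values hold no read depth, so no counting interval can be given. The 6466 genes whose 6-library mean reached 10 TPM were compared between groups on log2(TPM + 1), and a gene was called at a Benjamini-Hochberg adjusted p under 0.05 over all of them in limma. Fold changes on the log2 scale are those of TPM + 1, a scale on which changes of low genes come out smaller. The defining T cell genes were present: the 9 CD8 T cell markers summed to between 2904 and 3177 TPM with DMSO and between 3102 and 3289 TPM with ponatinib. Within that sum 3 were called higher and 1 lower, beside 29.9% and 9.88% of all genes tested. Cd8a, Cd8b1 and Cd3e had means of 238, 322 and 208.5 TPM with DMSO and of 346, 450 and 267 TPM with ponatinib. Cd2 fell from a mean of 420 to 240 TPM. The median TPM of kept genes was 34.4 in DMSO replicate 3, against 31.8 and 31.6 in the other DMSO libraries and 34.3 to 35.2 with ponatinib, and values without that library are given beside each member it touches. As in any bulk sample, fewer cells that make a transcript and less of it per cell cannot be told apart.

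Ponatinib went with lower Batf3, Fosl2, Junb, Irf4 and Irf8 and with higher Jund. Batf and Jun were not called, and Fos and Fosb lay under the minimum mean. Of the 8 members kept in the fit, 5 were called lower, or 62.5%, beside 9.88% of all genes tested, and 1 was called higher, or 12.5%, beside 29.9% of all genes tested. Fosl2, 1 of the 5, passed the minimum only through the DMSO libraries, where it was high. The members were also chosen with earlier results of these data known, so these shares are a description. The groups did not overlap in 6 of the 8, beside 53.4% of all genes tested. The median log2 fold change was -0.37 over the 8 members and 0.10 over all genes tested. With the scaling by medians of ratios, which moves the median of all genes to 0.00, the 5 lower calls held and Jund was not called, at 0.18 (adjusted p = 0.103).

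**Figure D1:**
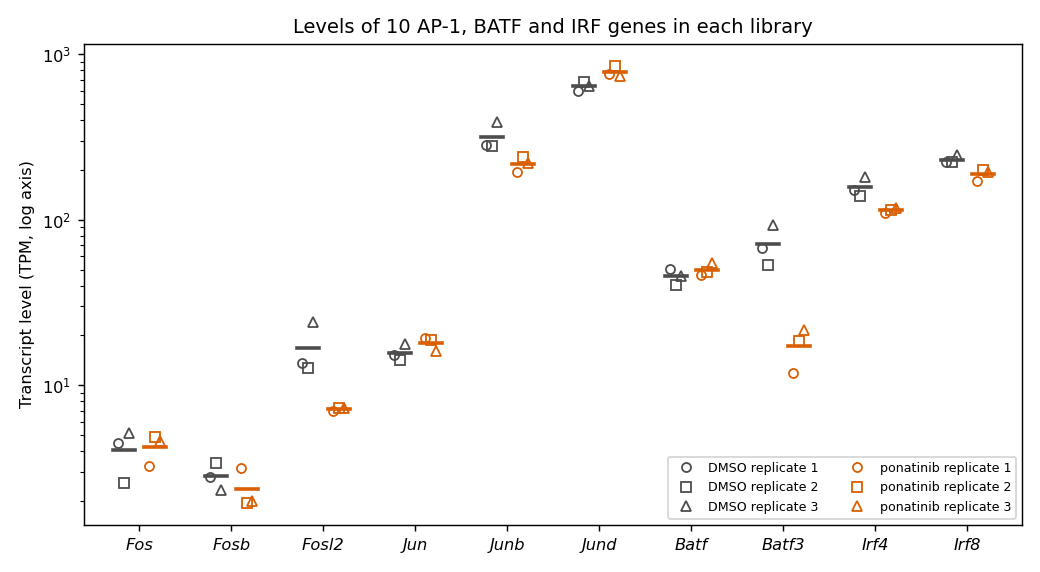
Transcript level in TPM on a log axis for each of the 10 genes, with 1 symbol per library (circle, square and triangle for replicates 1, 2 and 3) and a bar at the mean of each group. Batf3 and Fosl2 show the widest gaps between DMSO (grey) and ponatinib (orange), Batf and Jun overlap, and DMSO replicate 3 is the highest DMSO library for all 5 genes that were lower with ponatinib.

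The promoters of the 5 genes that fell are shown because these genes moved in the same direction. They are RefSeq promoters on GRCm38.p6 from 250 bases before to 50 bases after the annotated start, written 5′ to 3′ on the strand of the gene, and capitals mark matches on either strand to the motifs named below. All 10 members had such a promoter, and Irf8 had 2, of which the upstream one is shown. The RefSeq start differs from the GENCODE gene start, printed with each gene below, by 567 bases downstream for Batf3, 671 bases downstream for Fosl2, 30 bases upstream for Junb and 7 bases downstream for Irf4. For Jund it lies 1210 bases upstream, so that the Jund window, not shown but counted below, is outside the gene span. Batf3 lies at chr1:191098164-191098463 on the plus strand, Fosl2 at chr5:32136222-32136521 on the plus strand, Junb at chr8:84978699-84978998 on the minus strand, Irf4 at chr13:30748983-30749282 on the plus strand and Irf8 at chr8:120736108-120736407 on the plus strand.
Batf3: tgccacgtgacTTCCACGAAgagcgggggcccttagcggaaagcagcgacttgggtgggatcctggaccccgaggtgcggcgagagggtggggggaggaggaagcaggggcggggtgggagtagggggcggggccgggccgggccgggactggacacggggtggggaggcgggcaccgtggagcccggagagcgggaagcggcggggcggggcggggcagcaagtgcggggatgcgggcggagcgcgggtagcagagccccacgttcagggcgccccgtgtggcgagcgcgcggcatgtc
Fosl2: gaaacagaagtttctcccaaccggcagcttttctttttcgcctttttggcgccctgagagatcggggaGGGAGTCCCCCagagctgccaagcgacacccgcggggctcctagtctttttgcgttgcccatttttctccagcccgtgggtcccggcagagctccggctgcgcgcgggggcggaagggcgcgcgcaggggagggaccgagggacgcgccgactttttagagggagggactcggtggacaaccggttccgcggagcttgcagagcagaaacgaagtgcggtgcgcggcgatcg
Junb: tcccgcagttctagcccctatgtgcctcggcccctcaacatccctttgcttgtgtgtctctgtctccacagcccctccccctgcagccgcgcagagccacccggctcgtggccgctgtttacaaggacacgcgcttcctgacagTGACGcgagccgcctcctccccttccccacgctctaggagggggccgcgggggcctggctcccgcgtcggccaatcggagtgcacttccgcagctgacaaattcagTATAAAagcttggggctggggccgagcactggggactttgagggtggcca
Irf4: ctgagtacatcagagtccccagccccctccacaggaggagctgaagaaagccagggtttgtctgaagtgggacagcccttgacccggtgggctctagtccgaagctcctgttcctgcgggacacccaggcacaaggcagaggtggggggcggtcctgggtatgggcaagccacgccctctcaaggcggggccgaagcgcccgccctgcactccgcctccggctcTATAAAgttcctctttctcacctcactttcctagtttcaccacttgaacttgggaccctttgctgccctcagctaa
Irf8: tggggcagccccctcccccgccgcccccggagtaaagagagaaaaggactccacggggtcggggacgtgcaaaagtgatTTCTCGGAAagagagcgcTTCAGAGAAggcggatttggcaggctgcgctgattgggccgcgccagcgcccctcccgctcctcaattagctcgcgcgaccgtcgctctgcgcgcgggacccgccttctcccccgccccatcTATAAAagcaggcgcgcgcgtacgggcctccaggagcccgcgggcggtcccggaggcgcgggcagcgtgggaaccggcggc

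The AP-1 site TGANTCA was found in 0 of the 11 member promoters, where 7.81% of 32851 promoters of this length hold it. The Batf3 promoter held 1 match to the STAT site TTCNNNGAA, 239 bases before the start, and the Irf8 promoter held 2 that do not overlap, 171 and 153 bases before the start; 8.30% of all promoters hold one. An NF-kB motif matched in Fosl2 in 2 overlapping positions, 182 and 181 bases before the start, and also in Fos and Fosb, where 4.51% of all promoters hold it. The TATA box TATAAA stood 26 bases before the start in Irf4 and 31 bases before it in Irf8, also matched in Fos, 33 bases before it, and in Junb began at the RefSeq start, 30 bases before the GENCODE start, where 13.6% of all promoters hold it. Junb held the CRE half-site TGACG 106 bases before the start, as did Fos, Fosb and Batf elsewhere, where 20.8% of all promoters hold it. Of the 10 genes, Jun was the one with the CRE-type site TGACNTCA, 45 bases before the start, against 8.83% of all promoters. The CArG box, bound by SRF, matched in 0 of the 11, and in 1.63% of all promoters. The Batf3 promoter was 75.7% G and C, above the median of 52.7% over all promoters. These matches describe the letters in these windows only.

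Batf3, which encodes a BATF protein best known for the development of cross-presenting dendritic cells and also induced in activated T cells, had the largest change of the 8. It was at 67.4, 53.3 and 92.5 TPM in DMSO replicates 1, 2 and 3 and at 11.9, 18.4 and 21.6 TPM in ponatinib replicates 1, 2 and 3. The lowest DMSO library was above the highest ponatinib library. With DMSO the mean was 71.1 ± 19.9 TPM and with ponatinib 17.3 ± 4.97 TPM (SD, n = 3 per group), so Batf3 fell 4.10-fold (log2 fold change -1.98, SE 0.24, limma adjusted p = 9.75e-04). By size of change Batf3 ranked 27 of the 6466 genes tested. Without DMSO replicate 3 the log2 fold change was -1.77 (limma adjusted p = 1.69e-04). The gene (ENSMUSG00000026630) spans 191097847 to 191108945 of chromosome 1 (GRCm38, plus strand).

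Batf, the BATF gene required for effector CD8 T cells to expand, did not follow Batf3. Its level was 50.5, 40.1 and 45.9 TPM with DMSO and 46.5, 48.1 and 54.5 TPM with ponatinib, and the groups overlapped. The log2 fold change of 0.13 had a 95% interval from -0.09 to 0.35 (limma adjusted p = 0.314). In each DMSO library Batf3 was above Batf, and in each ponatinib library it was below. Batf3 made up 57.2%, 57.0% and 66.8% of the summed TPM of both genes with DMSO and 20.4%, 27.7% and 28.4% with ponatinib. The share differed by -34.9 percentage points, and the exact two-sided permutation test gave p = 0.10, the smallest that 3 against 3 libraries allow. The summed level of both genes was 117 ± 22.5 TPM with DMSO and 67.1 ± 8.89 TPM with ponatinib (SD, n = 3 per group).

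Among the FOS genes, Fosl2, which encodes FRA-2 and was the most abundant of the 3, fell. Its levels were 13.7, 12.7 and 24.2 TPM with DMSO and 6.97, 7.29 and 7.25 TPM with ponatinib, without overlap. The log2 fold change was -1.07 (SE 0.21, limma adjusted p = 0.00598). With a pseudocount of 10 in place of 1 it was -0.62 (limma adjusted p = 0.0106). Fosl2 passed the minimum mean only through the DMSO libraries, and DMSO replicate 3 was far above the other 2. Without that library Fosl2 was under the minimum, and with a minimum of 1 TPM instead its log2 fold change was -0.80 (limma adjusted p = 2.16e-04). Its gene (ENSMUSG00000029135) spans 32135801 to 32157842 of chromosome 5 (GRCm38, plus strand).

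Fos and Fosb, immediate-early genes that are known to peak soon after receptor engagement, had the lowest levels of the 10 genes at this time. Fos was at 4.50, 2.57 and 5.13 TPM with DMSO and at 3.26, 4.85 and 4.61 TPM with ponatinib. Fosb was at 2.79, 3.40 and 2.33 TPM with DMSO and at 3.18, 1.94 and 1.99 TPM with ponatinib. Both groups overlapped for both genes. With a minimum mean of 1 TPM, where 33.4% of 10039 genes were called in either direction, neither was called. The log2 fold change of Fos was 0.07 (95% interval -0.43 to 0.57, limma adjusted p = 0.824) and that of Fosb was -0.20 (95% interval -0.59 to 0.20, limma adjusted p = 0.405). The summed level of Fos, Fosb and Fosl2 was 20.99, 18.7 and 31.7 TPM with DMSO and 13.4, 14.1 and 13.8 TPM with ponatinib. Fosl2 made up 69.9% ± 5.82 of it with DMSO and 52.0% ± 0.317 with ponatinib (SD, n = 3 per group). Fosl1, a FOS gene outside the 10, is not in this sum and ran the other way. It was at 4.17, 3.53 and 4.54 TPM with DMSO and at 9.61, 9.52 and 8.81 TPM with ponatinib. Whether a sum with Fosl1 differs between groups was not tested.

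The JUN genes moved apart. Junb, a JUN protein gene of activated T cells that partners BATF, was at 283, 280.3 and 389 TPM with DMSO and at 194, 239.9 and 221 TPM with ponatinib. The groups did not overlap, and DMSO replicate 3 was well above the other 2. The log2 fold change was -0.53 (SE 0.13, limma adjusted p = 0.0161), and without DMSO replicate 3 it was -0.37 (limma adjusted p = 0.00389). The Junb call was lost without ponatinib replicate 1 (limma adjusted p = 0.0646) or 3 (0.0533) and with no minimum level (0.0511). Junb (ENSMUSG00000052837) spans 84974484 to 84978718 of chromosome 8 (GRCm38, minus strand) and overlaps Prdx2, a peroxiredoxin gene. Prdx2 was at 156, 149 and 145 TPM with DMSO and at 120.5, 121 and 124 TPM with ponatinib, and the part of shared sequence in the Junb values was not tested.

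Jund, which encodes a JUN protein present in resting cells and often set against JUN and JUNB as a brake on growth, was the most abundant of the 10 in every library. It was at 598, 682 and 643 TPM with DMSO and at 761, 850 and 741 TPM with ponatinib, without overlap. The log2 fold change was 0.29 (SE 0.07, limma adjusted p = 0.0133), but the median over all genes tested was itself 0.10. Besides medians of ratios, quantile normalization (0.23, limma adjusted p = 0.0578) and leaving out ponatinib replicate 2 (0.23, limma adjusted p = 0.0508) ended the call. It (ENSMUSG00000071076) spans 70698949 to 70700616 of chromosome 8 (GRCm38, plus strand).

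Jun, the founding JUN gene, was a minor transcript at 15.2, 14.3 and 17.8 TPM with DMSO and 19.4, 18.6 and 16.0 TPM with ponatinib. The groups overlapped, and its log2 fold change was 0.18 with a 95% interval from -0.05 to 0.42 (limma adjusted p = 0.192). Without DMSO replicate 3 it was called higher, at 0.27 (limma adjusted p = 0.0289). Within the JUN genes the balance of Junb and Jund differed more than their sum. Summed JUN levels overlapped, at 974 ± 77.2 TPM with DMSO and 1020 ± 76.2 TPM with ponatinib (SD, n = 3 per group). Jund over Junb was 2.11, 2.43 and 1.65 with DMSO and 3.92, 3.54 and 3.35 with ponatinib (exact two-sided permutation p = 0.10, the smallest possible). In every library the summed JUN level exceeded that of Fos, Fosb and Fosl2, by a ratio of 33.2 to 52.4 with DMSO and of 70.7 to 78.7 with ponatinib. This ratio leaves out Fosl1, which was higher with ponatinib, and a ratio with Fosl1 was not tested.

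**Figure D2:**
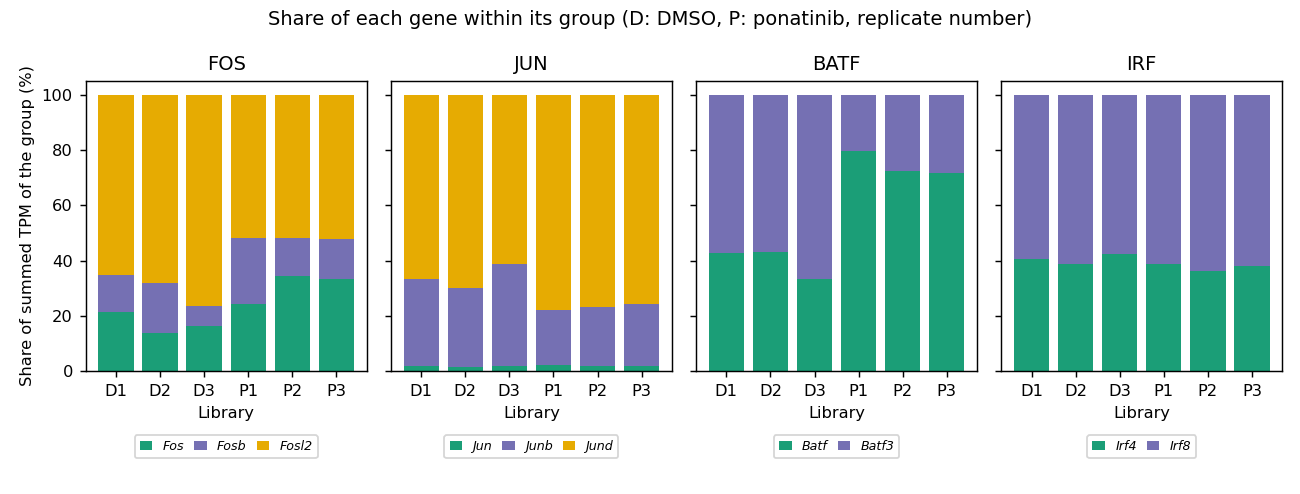
Share of each gene in the summed TPM of its group (FOS, JUN, BATF and IRF, in percent) in the 3 DMSO libraries (D1 to D3) and the 3 ponatinib libraries (P1 to P3). The Batf3 share falls from 57.0% or more to 28.4% or less and the Junb share is lower in each ponatinib library, while the shares of Irf4 and Irf8 overlap between groups.

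Irf4, which encodes the factor that binds with BATF-JUN pairs and scales T cell responses to receptor signal strength, was at 151, 139.5 and 181 TPM with DMSO and at 109.6, 114 and 118 TPM with ponatinib. All ponatinib libraries were below all DMSO libraries, and DMSO replicate 3 was the highest. The log2 fold change was -0.46 (SE 0.09, limma adjusted p = 0.00657), and it was -0.35 without DMSO replicate 3 (limma adjusted p = 9.23e-04). The call held without each other library in turn and with each other scaling, filter and pseudocount tried that kept the gene. The Irf4 gene (ENSMUSG00000021356) spans 30749226 to 30766976 of chromosome 13 (GRCm38, plus strand).

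Irf8, a close relative of Irf4 that is abundant in B cells and dendritic cells and is induced in effector CD8 T cells, was at 223, 222 and 245 TPM with DMSO and at 172, 201 and 193 TPM with ponatinib. The groups did not overlap, and the log2 fold change was -0.28 (SE 0.07, limma adjusted p = 0.0145). DMSO replicate 3 was the highest library, and without it the value was -0.24 (limma adjusted p = 0.0132). Irf8 exceeded Irf4 in all 6 libraries. Irf4 made up 40.5% ± 1.96 of the summed TPM of both with DMSO and 37.7% ± 1.32 with ponatinib (SD, n = 3 per group), and these shares overlapped (exact two-sided permutation p = 0.20). The Irf8 gene (ENSMUSG00000041515) spans 120736358 to 120756694 of chromosome 8 (GRCm38, plus strand).

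Markers of other cells that express Irf8 or Batf3 were summed over their lists. The 14 myeloid and dendritic cell markers summed to 1.12 to 1.56 TPM with DMSO and to 3.15 to 5.73 TPM with ponatinib, with Siglech at 0 in all libraries and Xcr1 and Clec9a, which mark cross-presenting dendritic cells, at no more than 0.0216 and 0.0532 TPM. In 5 of the 14 the groups did not overlap, each with ponatinib above DMSO, beside 53.4% of all genes tested. All 14 lay under the minimum mean, and no such share was computed for genes this low. Lyz2 was at 0.0422 to 0.260 TPM with DMSO and at 1.13 to 2.81 TPM with ponatinib, Itgax at 0.0124 to 0.0359 and at 0.123 to 0.376 TPM, and S100a8 was listed at 0 with DMSO and at 0.187 to 0.592 TPM with ponatinib. The others were Cd14 and Flt3, at no more than 0.0343 and 0.0411 TPM. The 11 B cell markers summed to 140.4 to 168 TPM with DMSO and to 156 to 177 TPM with ponatinib. Ighm made up most of that, and the other 10 summed to 9.07 to 16.2 TPM with DMSO and to 20.2 to 22.9 TPM with ponatinib. The 4 MHC class II genes summed to 94.9 to 132 TPM and to 143.5 to 157 TPM. Cd74 made up most of that and was called higher. H2-Ab1, not called, was at 12.7, 10.6 and 34.1 TPM with DMSO and at 7.07, 9.82 and 10.5 TPM with ponatinib. H2-Aa, under the minimum mean, was at 1.12, 2.25 and 7.51 TPM with DMSO and at 12.6, 13.8 and 12.3 TPM with ponatinib. H2-Eb1, also under it, was at 0.826, 0 and 4.14 TPM with DMSO and at 2.99, 2.44 and 3.51 TPM with ponatinib. With a minimum of 1 TPM, H2-Aa was called higher (limma adjusted p = 0.0146) and H2-Eb1 was not called (limma adjusted p = 0.205). The 4 CD4 T cell markers summed to 5.21 to 9.53 TPM with DMSO and to 16.4 to 19.7 TPM with ponatinib, and the 5 NK cell markers to 0.104 to 0.491 TPM and to 0.891 to 1.223 TPM. Cd4, Cd40lg and Foxp3 were each above their DMSO range with ponatinib, and Zbtb7b was below it, at 2.48, 1.46 and 4.64 TPM with DMSO and at 1.03, 1.096 and 0.978 TPM with ponatinib. The part of these cells in the higher or lower members was not tested.

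**Figure D3:**
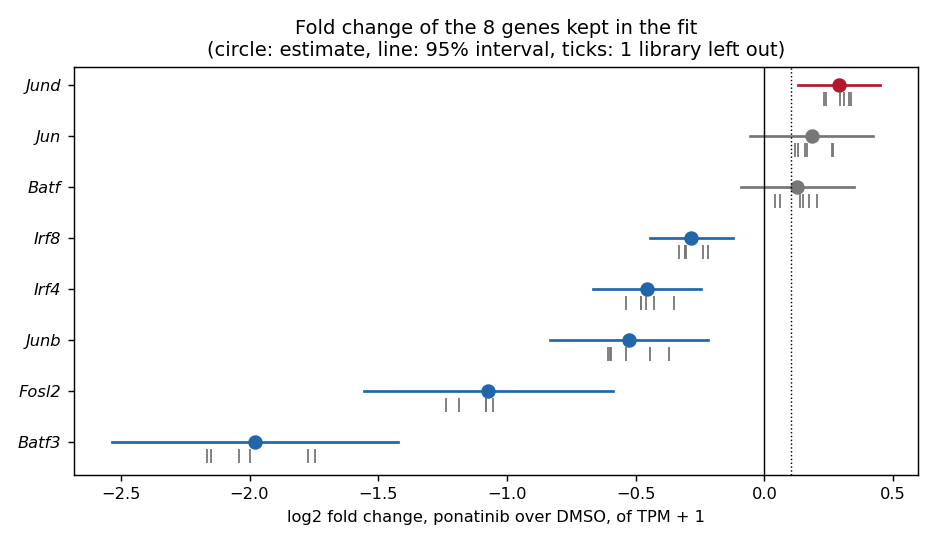
log2 fold change of TPM + 1, ponatinib over DMSO, of the 8 genes kept in the fit, with the 95% interval as a line and the values with 1 library left out as ticks below it. Blue marks genes called lower, red the one called higher and grey those not called. The dotted line is the median of all genes tested, 0.10, and every plotted left-out value of Batf3, Fosl2, Junb, Irf4 and Irf8 lies below 0. Fosl2 has no tick without DMSO replicate 3, where it fell under the minimum mean.

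By level the order was Jund, Junb, Irf8 and Irf4 in all 6 libraries, with means over all libraries of 712, 268, 209 and 136 TPM. The ranges of Junb and Irf8, and of Irf8 and Irf4, overlapped across libraries, although the order held within each. Batf, Batf3, Jun and Fosl2 followed, with means of 47.6, 44.2, 16.9 and 12.02 TPM, and neighbours in that stretch changed places between libraries. Fos and Fosb were lowest, at means of 4.15 and 2.61 TPM, and their ranges overlapped.

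The genes whose log2(TPM + 1) ran most like Irf4 over the 6 libraries were Ctsz, encoding the protease cathepsin Z, Chchd1 and Slc3a2, encoding the heavy chain of amino acid transporters, with Pearson r of 0.9995, 0.998 and 0.9975. Rasal3, encoding a RAS GTPase-activating protein, Cd52 and Abracl ran most opposite, at -0.997, -0.9948 and -0.9943. Most like Junb were Coasy, Cdk5rap3 and Keap1, at 0.9971, 0.9958 and 0.9937, and most opposite were Uqcrh, Ctsd and Lsp1, at -0.991, -0.9893 and -0.9847. For Batf, whose groups overlapped, the closest were Trav6-7-dv9, Ehmt1 and Mcts1, at 0.9767, 0.9697 and 0.9638, and the most opposite were Pole, Csrp1 and Gm49325, at -0.935, -0.9255 and -0.9241. These values rank genes over 6 libraries that share 1 group difference, and each is picked from 6466 genes.

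The other leucine zipper factors, listed here as AP-1 type, split. Of 14 listed, 6 were kept, 2 of them higher and 2 lower, and their median was -0.02 on the log2 scale. For this list and those that follow, the shares over all genes tested are 29.9% higher and 9.88% lower. These lists, too, were chosen with earlier results of these data known. Atf3, a stress-induced partner of JUN, had the largest change, from 36.7, 30.3 and 66.1 TPM with DMSO to 4.32, 5.10 and 5.68 TPM with the drug (-2.84 on the log2 scale, SE 0.25, limma adjusted p = 3.44e-04). Nfil3, listed here although its leucine zipper protein is not an AP-1 member, encodes a transcriptional repressor induced in activated lymphocytes. Nfil3 was lower with ponatinib, at 7.202 ± 1.26 TPM against 34.1 ± 11.98 TPM (SD, n = 3 per group). Bach2, a repressor that competes with AP-1 for its sites and restrains effector differentiation, rose from 18.6 ± 0.842 to 24.6 ± 1.55 TPM (limma adjusted p = 0.00482), and Mafk, a small MAF partner, rose from 21.4 ± 2.98 to 29.7 ± 1.62 TPM. As with the lower members, DMSO replicate 3 was the highest library for Atf3 and Nfil3, and without it their log2 fold changes were -2.51 and -1.80. Both lower genes of the list, Atf3 and Nfil3, passed the minimum mean only through the DMSO libraries.

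Other interferon regulatory factor genes did not share the direction of Irf4 and Irf8. Of 7 listed, 5 were kept, with 2 higher, 1 lower and a median of 0.09. Irf2, mostly a repressor, rose from 26.4 ± 2.26 to 37.7 ± 2.17 TPM (limma adjusted p = 0.00252). Irf1, an activator of interferon responses, rose from 88.6 ± 5.91 to 110.1 ± 11.2 TPM (SD of 3 libraries each), a call lost with medians of ratios (0.20, adjusted p = 0.0859), with quantile normalization (0.0519) and without DMSO replicate 1 (0.0692) or 2 (0.0566). Irf7, a driver of type I interferon genes, was at 13.0, 13.5 and 38.7 TPM with DMSO and at 7.96, 5.87 and 5.61 TPM with the drug (-1.43 on the log2 scale, limma adjusted p = 0.0176). Irf7 passed the minimum only through the DMSO libraries. Without DMSO replicate 3 it was under the minimum mean, and with a minimum of 1 TPM its log2 fold change was -0.94. The Irf7 call was also lost without ponatinib replicate 2 (0.0563) or 3 (0.0693) and with no minimum (0.0582). Irf3 was not called, at 0.09 (limma adjusted p = 0.198), and it was at -0.01 with medians of ratios.

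**Figure D4:**
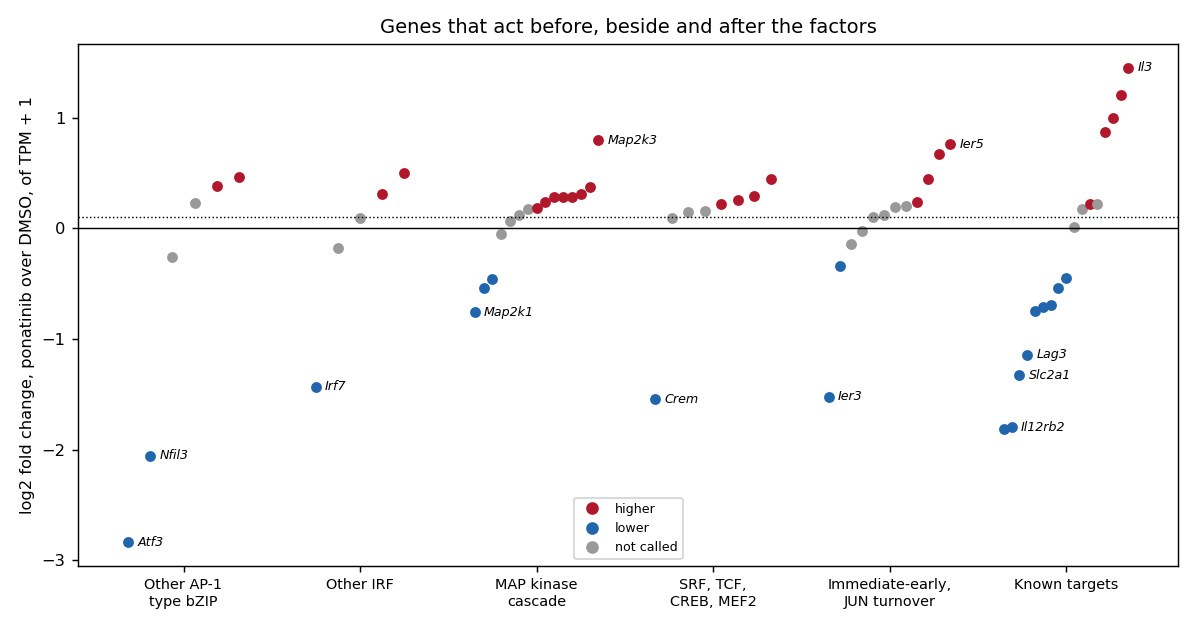
log2 fold change of TPM + 1, ponatinib over DMSO, of every kept gene in 6 lists around the factors, 1 dot per gene, red where called higher, blue where called lower and grey where not called. The dotted line is the median of all genes tested, 0.10. Each list holds genes on both sides of it, from Atf3 at -2.84 to Il3 at 1.45.

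Of 21 listed genes of the MAP kinase cascade, which carries the receptor signal to AP-1, 15 were kept, with 8 higher, 3 lower and a median of 0.19. Map2k3, encoding a kinase of p38, rose from 55.1 ± 2.45 to 96.4 ± 5.19 TPM (0.80 on the log2 scale, SE 0.06, limma adjusted p = 2.00e-04), and Map2k7, encoding a kinase of JNK, rose by 0.38. On the ERK arm Map2k1 fell from 69.8 ± 12.5 to 40.5 ± 3.82 TPM and Mapk3, encoding ERK1, from 27.9 ± 3.14 to 18.8 ± 1.68 TPM (SD, n = 3 per group). Leaving out DMSO replicate 3 gave Map2k1 -0.62 and Mapk3 -0.45 on the log2 scale. The count of higher genes in this list was 5 with medians of ratios and 3 without ponatinib replicate 3; it was 5 without DMSO replicate 1 or 2 or ponatinib replicate 1 or 2.

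Among SRF, ternary complex, CREB and MEF2 factors, which switch on Fos and Jun genes, 8 of 12 were kept, with 4 higher, 1 lower and a median of 0.19. Srf rose from 40.7 ± 4.75 to 55.5 ± 1.35 TPM (SD, n = 3 per group, limma adjusted p = 0.00499), and its coactivator gene Mrtfa and the ternary complex factor gene Elk3 were higher by 0.30 and 0.26 on the log2 scale. The Elk3 call was lost in 6 of the alternatives, among them medians of ratios (limma adjusted p = 0.0636) and the addition of transcript rows (0.109), and that of Mrtfa with medians of ratios (0.0505). Crem, encoding repressors and activators of the CREB type, fell from 71.5, 62.7 and 126 TPM to 24.2, 29.4 and 29.8 TPM (log2 fold change -1.54, limma adjusted p = 0.00208), and without DMSO replicate 3 the change was -1.25. With medians of ratios 1 gene of the list was higher, without DMSO replicate 3 there were 7, and without any 1 of DMSO replicates 1 and 2 and ponatinib replicates 2 and 3 there were 2.

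Immediate-early genes and genes of JUN turnover had 12 of 14 kept, with 4 higher, 2 lower and a median of 0.16. The RNA decay gene Zfp36l1, whose protein binds AU-rich messages, rose from 49.3 ± 3.81 to 79.0 ± 6.35 TPM (SD, n = 3 per group, limma adjusted p = 8.93e-04). Its relative Zfp36 rose by 0.44 on the log2 scale and Ier5 by 0.76. Ier3, a survival gene of the early response, fell from 19.4, 16.2 and 35.5 TPM to 6.48, 7.82 and 7.22 TPM (log2 fold change -1.52, limma adjusted p = 0.00292), and by 1.20 on the log2 scale without DMSO replicate 3. Ier3, too, passed the minimum only through the DMSO libraries. Without DMSO replicate 3, 7 of the list were higher. The list had 1 lower gene without DMSO replicate 1, ponatinib replicate 1 or ponatinib replicate 3, and with no minimum.

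Of 22 genes known as targets of AP-1, BATF or IRF4 in T cells, 17 were kept, with 9 lower, 5 higher and a median of -0.45, against 0.10 for all genes tested. The 5 of 17 higher is close to the 29.9% over all genes tested, and the 9 of 17 lower stands beside 9.88%. This list was chosen with earlier results of these data known, so these counts are a description. The lower side held the glucose transporter gene Slc2a1, from 76.3 ± 9.74 to 29.7 ± 2.31 TPM (log2 fold change -1.33, SE 0.10, limma adjusted p = 1.74e-04), the inhibitory receptor gene Lag3 (-1.14) and Il12rb2, a chain of the IL-12 receptor, from 125 ± 51.4 to 33.5 ± 3.73 TPM (SD, n = 3 per group). The DMSO levels of Il12rb2 were 96.4, 93.7 and 184 TPM for replicates 1, 2 and 3, and leaving replicate 3 out gave -1.48 on the log2 scale, and -0.99 for Lag3. On the higher side stood Il3, a cytokine gene with AP-1 sites, from 5.66 ± 1.11 to 17.4 ± 4.21 TPM. Il3 and Csf2, another of the 5 higher genes, named after its values were seen, passed the minimum only through the ponatinib libraries. The rest of the 5, also named after their values were seen, were Ifng, Tnf and Pdcd1, above the minimum in both groups. Their means were 370, 26.5 and 55.0 TPM with DMSO and 743, 46.8 and 64.2 TPM with ponatinib. DMSO replicate 3 was far above the other DMSO libraries for Ifng (665 TPM, against 216 and 230) and Tnf (39.1 TPM, against 20.5 and 19.7). The count of higher genes in this list was 1 without ponatinib replicate 3, 2 without DMSO replicate 2 or ponatinib replicate 2, and 3 without DMSO replicate 1 or ponatinib replicate 1. The count of lower genes was 5 without ponatinib replicate 1, 6 without ponatinib replicate 2 or 3 and 5 with no minimum.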

How the data were processed

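RNA was sequenced from total RNA of activated mouse CD8 T cells after extraction with an RNeasy Plus Micro kit and NEBNext Ultra II library preparation, per the labels' protocols. The authors deposited 1 table of 43072 rows, 22095 of genes and 20977 of transcripts. Its values were treated as TPM because every deposited column sums to 1000000, although its name speaks of normalized counts. Tools listed in the submitters' processing notes, without roles, are DESeq2 1.22.1, Salmon 1.5.1 and fastp 0.19.5, with the build GRCm38. The summing of transcripts to genes and any use of strand are not given in the sources consulted. TPM keep no depth, so depth is unknown.

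Gene rows were named with GENCODE mouse release 21 (22011 found) and used as deposited; they held 92.9% to 93.24% of TPM. Genes reaching a mean of 10 TPM were fitted with limma 3.58.1 in R 4.3.3 (lmFit, eBayes with trend, two-sided, no replicate block) on log2(TPM + 1), and p-values were Benjamini-Hochberg adjusted over all 6466. Members under that mean were fitted with a minimum of 1 TPM. Shares were tested with exact permutation in scipy 1.17.1. The fit was tested on simulated data. The members and lists were chosen with earlier results of these data known. Named genes are all members, the 4 smallest-p genes (or fewer) per list, and the 3 genes most like and most opposite Irf4, Batf and Junb. The promoter motifs were chosen while the data were being analysed. Alternatives were other minimum levels, pseudocounts of 0.1 and 10, medians of ratios, quantile normalization, added transcript rows, a replicate block and each library left out.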

Additional observations from a re-analysis of the deposited data

Results flagged for a closer look

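Transcript rows lay outside the comparison. Of the 2 such rows that belong to the 10 genes, 1 is an Irf4 transcript listed apart from the Irf4 gene row. It was at 0 TPM in all 3 DMSO libraries and at 0.453, 0.373 and 0 TPM in ponatinib replicates 1, 2 and 3, so that 2 of the 3 ponatinib libraries were above the DMSO libraries and the third was level with them. This difference was not tested, and adding it to the gene left the log2 fold change of Irf4 at -0.45. The other row, an Irf8 transcript, was at 0 TPM in all 6 libraries.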

How the results depend on the processing

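Batf3, Irf4 and Irf8 were called lower under every alternative that kept them, and Fosl2 likewise. With medians of ratios 1059 genes were higher and 1166 lower in place of 1931 and 639, so that 47.6% of calls were higher in place of 75.1%, and 0 members were higher; Irf3 changed sign, to -0.0087. With quantile normalization 1276 were higher and 1001 lower (56.0% higher), and 0 members were higher. With a minimum of 100 TPM, 428 genes were higher and 137 lower of 1232, and 3 members were lower of 4 kept. With 1 library left out, between 1138 and 2745 genes were higher, between 463 and 677 lower, between 0 and 2 members higher and between 4 and 5 members lower. Without DMSO replicate 3 and with a minimum of 1 TPM, chosen after seeing the data, 3534 genes were higher and 1011 lower, 2 members were higher and 5 lower. The number of higher genes was 1197 without ponatinib replicate 2 and 1138 without ponatinib replicate 3. Deviations of same-numbered libraries had correlations of -0.098, 0.127 and 0.009 for numbers 1, 2 and 3, and those of differently numbered libraries -0.157 to 0.113. With 3 libraries per group these values cannot tell whether the numbers pair libraries. With the replicate number as a block 1911 genes were higher and 646 lower, and 1 member was higher and 5 lower.

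In the lists, a minimum of 1 TPM gave 4 higher and 4 lower of the other AP-1 type genes, 3 lower of the other interferon regulatory factor genes and 5 lower of the MAP kinase genes; no minimum gave 5 higher of the other AP-1 type genes. A pseudocount of 10 brought the log2 fold changes of Atf3, Nfil3, Ier3, Irf7 and Il3 to -1.80, -1.33, -0.93, -0.85 and 0.80, all still called. A minimum of 100 TPM left at most 3 called genes in any direction of any list. Shares within the gene groups kept their direction under every alternative run. The cause of these changes was not tested, other than that stricter minimums test fewer genes. Without reads, low levels such as those of Fos and Fosb have no known counting error.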

Other observations

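Some AP-1 type genes under the minimum mean also differed between groups, and they are named here after their values were seen. Fosl1, which encodes the FOS protein FRA-1, was at 4.17, 3.53 and 4.54 TPM with DMSO and at 9.61, 9.52 and 8.81 TPM with ponatinib, the opposite direction to Fosl2 (log2 fold change 1.03 with a minimum of 1 TPM, limma adjusted p = 5.91e-04). With ponatinib Fosl1 was above Fosl2 in each library, and with DMSO it was below. Fosl1 is not part of the summed FOS level, the FOS shares or the ratio of JUN to FOS given above. Jdp2, which encodes a small leucine zipper protein that pairs with JUN and represses, was at 3.48, 2.503 and 3.52 TPM with DMSO and at 0.718, 0.567 and 0.698 TPM with ponatinib (-1.32, limma adjusted p = 6.62e-04). Bach1, a relative of Bach2, was at 2.64, 3.11 and 4.14 TPM with DMSO and at 7.55, 7.06 and 6.39 TPM with ponatinib (0.91, limma adjusted p = 0.00276).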
